A study of Arundo donax with 12 samples.

Results

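The cadmium response of giant reed (*Arundo donax* L., ecotype G10) was compared between root and leaf as an interaction, the cadmium change in root minus the cadmium change in leaf, (Cd_R - CK_R) - (Cd_L - CK_L). All 12 libraries of the series entered 1 fit with a mean for each of the 4 groups, 3 biological replicates in each: Cd_R and Cd_L were roots and leaves of plants grown from a stem node in clay soil with cadmium nitrate at 4 mg/kg, and CK_R and CK_L were roots and leaves of plants that received ammonium nitrate in its place to balance the nitrogen. All plants were of the same ecotype, each in a pot of its own and in the open air, and both organs were sampled from treated and from control plants; the labels give 6 pots for the 12 libraries, but not which root and leaf came from the same pot. The table holds 126668 unigenes, the longest transcripts of the clusters of a de novo assembly, and 61242 passed the filter on low counts and were tested. Crossing unigenes were defined as those with a fitted cadmium change of at least 2-fold in each organ and opposite signs, and 606 unigenes met that rule, 0.990% of those tested. Up and down, used of crossing unigenes, name the sign of the fitted change and not a call. In whole organs, fewer cells of a type and less RNA per cell cannot be told apart.

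A positive interaction says that a transcript was raised more, or lowered less, in root than in leaf by cadmium nitrate against ammonium nitrate. Effects of cadmium and of the ammonium nitrate given to controls cannot be told apart here. The term cadmium change stands for that difference throughout. Roots are the organ that takes up cadmium from soil, where metal transporters of the Nramp and heavy metal ATPase families, chelation and storage in the vacuole decide how much of the metal reaches the shoot. Leaves meet the metal later, and there photosynthesis and redox balance are the processes best known to be disturbed. An opposite direction in both organs is therefore a question of its own, which a list of changes per organ does not answer.

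Total counts were 22157170 to 26033492 per library, or about 24 counts for each CPM (counts per 1000000 counts, here scaled by TMM, edgeR's trimmed mean of M-values). The organ labels were checked on unigenes named in the tables of the study. The 4 unigenes with a photosynthesis or chloroplast term summed to 8.96 to 19.3 CPM in Cd_R, 7.74 to 11.3 CPM in CK_R, 89.2 to 215 CPM in Cd_L and 91.2 to 150 CPM in CK_L. The 5 precursors of CEP peptides, known from roots, had no count in any leaf library, and summed to 2.15 to 37.3 CPM in Cd_R and 0.0400 to 3.26 CPM in CK_R. The nitrate transporter overlapped between control organs, at 0.921 to 24.6 CPM in CK_R and 0.170 to 1.57 CPM in CK_L. The 2 alpha-class expansins summed to 0.598 to 19.0 CPM in CK_R and 0 to 0.113 CPM in CK_L. The study chose these root unigenes for a difference between Cd_R and Cd_L, so they are no independent check of the labels. Cd_R replicate 1 and CK_R replicate 3 stood apart from the other roots and deviated together from their group means (correlation 0.60 across unigenes). The 67 protein biosynthesis unigenes whose best hit was not a grass were highest in these libraries, with 176 CPM in Cd_R replicate 1 and 76.8 CPM in CK_R replicate 3, against medians of 28.5 CPM in Cd_R and 23.3 CPM in CK_R, and 4.19 to 8.82 CPM over the leaf libraries. The part of that signal in the results was not tested, and counts are given with and without both libraries.

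No unigene passed the edgeR test of the interaction, and few passed that of DESeq2. The quasi-likelihood test of edgeR, adjusted after Benjamini and Hochberg, called 0 DEGs (differentially expressed genes, with an adjusted p not above 0.05 and an interaction of 1 or more in size on the log2 scale) of 61242 unigenes, or 0%, with a lowest adjusted p of 0.936. The unadjusted p was under 0.05 in 1941 unigenes (3.17%), 1061 with a positive interaction (1.73%) and 880 with a negative one (1.44%). The Wald test of DESeq2 with default settings called 10 DEGs (0.0188% of the 53326 unigenes it gave an adjusted p), 2 positive and 8 negative, with 2451 unigenes at an unadjusted p under 0.05. limma voom with sample quality weights called 0, with a lowest adjusted p of 0.0672 and 2979 unigenes at an unadjusted p under 0.05. Without Cd_R replicate 1 and CK_R replicate 3, edgeR again called 0 and DESeq2, a setting chosen after seeing the data, called 32, of which 7 were among the 10.

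Opposite signs were fewer than shared ones. Both organs had a fitted change in 58564 unigenes, as 2280 had no count in leaf and 398 none in root, and the signs were opposite in 26077 (44.5%). At 2-fold or more in each organ, 606 unigenes were crossing, 286 up in root and down in leaf and 320 down in root and up in leaf, against 969 (1.58%) with the same sign in both, 332 up and 637 down. The changes of root and leaf were weakly related across the 61242 unigenes (Pearson's r = 0.07 and Spearman's rho = 0.12, a description, since unigenes are not independent and share the 12 libraries). The crossing count depended on the libraries: it was 831 without Cd_R replicate 1 and CK_R replicate 3, and it moved by more than 1.5 times without Cd_R replicate 3 (1005), CK_R replicate 1 (977), CK_R replicate 3 (1053), Cd_L replicate 2 (942), CK_L replicate 1 (921) or CK_L replicate 2 (1168). Near the 2-fold limit, the smaller of both changes was 1.00 on the log2 scale just inside it (152 unigenes within 0.1 above) and 0.9994 just outside it (211 within 0.1 below).

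**Figure D1:**
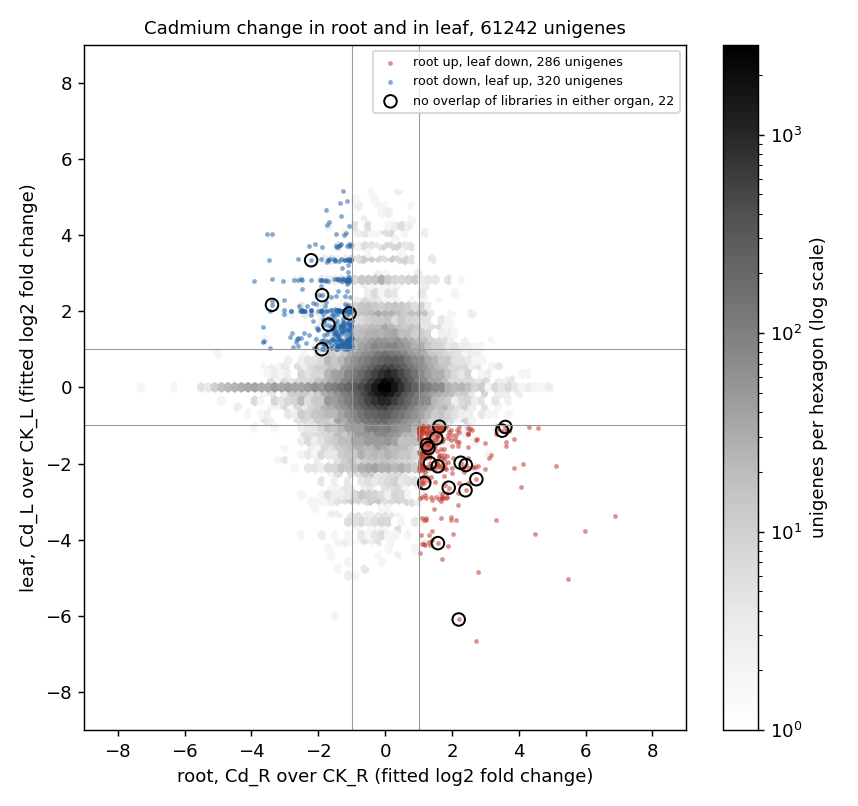
Fitted log2 fold change by cadmium in leaf (vertical axis) against root (horizontal axis) for the 61242 unigenes tested, in grey by their number, with crossing unigenes in colour and grey lines at 2-fold. The 286 unigenes up in root and down in leaf lie at the lower right and the 320 of the reverse direction at the upper left, and circles mark the 22 whose libraries did not overlap in either organ.

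The crossing unigenes were mostly of low expression. Their median level was 0.947 CPM over the 12 libraries, against 2.95 CPM over all unigenes tested, and 295 of 606 (48.7%) reached 1 CPM, against 72.6% of all. A group without any count was present in 199 of them, and in 172 an organ held at most 3 counts in both of its groups, 151 times the leaf and 21 times the root, so that the direction in that organ rests on almost no reads. With more than 3 counts in every group, 276 crossing unigenes were left, 147 up in root and 129 down in root. Their median absolute interaction was 2.86 on the log2 scale with a median standard error (SE) of 1.34, against 0.35 and 0.61 over the 54114 unigenes tested with as many counts. In 109 of the 276 the SE was over 50% of the interaction itself. For edgeR, the SE here and below is the absolute log2 fold change divided by the square root of the test's F. It therefore restates the test and is no separate measure of precision.

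The group levels of the crossing unigenes are a description, since the rule chose them on these same means and so shifts the order of the organs between Cd and CK. Unigenes up in root and down in leaf had median levels of 0.928 CPM in Cd_R and 0.310 CPM in CK_R, and of 0.163 CPM in Cd_L and 0.507 CPM in CK_L. In these, 217 of 286 were higher in root than in leaf under cadmium and 135 in the control. Unigenes down in root and up in leaf were root transcripts for the most part, with medians of 0.944 CPM in Cd_R and 2.68 CPM in CK_R, and of 0.129 CPM in Cd_L and 0.0375 CPM in CK_L. Of these 320, 256 were higher in root under cadmium and 294 in the control. The order of the organs by mean level was exchanged between Cd and CK in 82 unigenes of the first kind and in 38 of the second.

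Few unigenes had replicates that lay apart in both organs in opposite directions. The Cd_R and CK_R libraries did not overlap in CPM in 5856 unigenes (9.56%), 3242 higher and 2614 lower under cadmium, and those of Cd_L and CK_L lay apart in 5359 (8.75%), 2671 higher and 2688 lower. Both were true, with opposite directions, for 139 unigenes (0.227%), 100 higher in Cd_R and lower in Cd_L and 39 the reverse. The same direction in both organs was found in 415 (0.678%), 231 higher and 184 lower. With 3 libraries against 3, groups often lie apart without any change, so these shares are by themselves no sign of a cadmium effect. Of the 139, 99 had a mean of at least 1 CPM and 67 had a fitted change of at least 1.5-fold in each organ. At 2-fold they were 22, or 3.63% of the crossing unigenes, 16 up in root and 6 down in root, against 70 (7.22%) of the 969 with the same direction. Only 7 of the 22 had a mean of at least 1 CPM and 13 had more than 3 counts in every group. The edgeR test of the interaction gave these 22 unadjusted p values of 6.16e-05 to 0.0365, a description of unigenes chosen by that same contrast, and an adjusted p of 1.

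Nearly all crossing unigenes had a library that held most of a group's counts. In 600 of 606 (99.0%) more than 50% of the summed CPM of at least 1 group came from 1 library, against 56.2% of all unigenes tested and 98.3% of those with the same direction at 2-fold, and in 303 it was more than 90%. In 118 every group had such a library. Cd_L replicate 1 held that share in 184 crossing unigenes (30.4%) and Cd_R replicate 1 in 182 (30.0%), the highest of the 12, against 7.74% and 12.9% of all unigenes. Cd_R replicate 2 held it in 78, the lowest. When 1 library was left out, 392 (Cd_R replicate 1) to 530 (Cd_R replicate 3) of the 606 were still crossing, and 537 to 602 still had opposite signs. Through all 12 omissions 52 stayed crossing (8.58%), 24 up in root and 28 down in root, and 327 (54.0%) kept opposite signs, while 87 of the 969 with a shared direction (8.98%) stayed at 2-fold in it. Of the 52, 14 were among the 22 with no overlap and 17 had a mean of at least 1 CPM. Without Cd_R replicate 1 and CK_R replicate 3 together, 435 of the 606 were still crossing. All 22 were still without overlap, which is no sign of stability. Groups that lie apart stay apart when libraries are removed, save for small shifts in scaling. There were 107 unigenes without overlap in all, as smaller groups overlap less easily. For the same reason that number was 50 to 105 when 1 library was left out, lowest without Cd_R replicate 2 and highest without CK_L replicate 2.

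**Figure D2:**
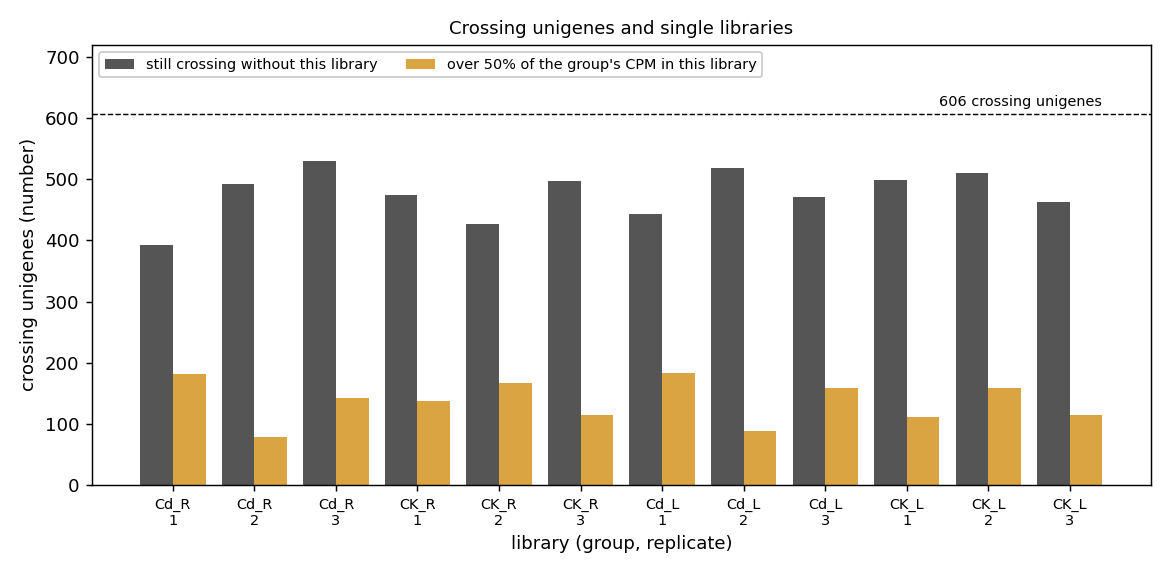
Number of the 606 crossing unigenes (vertical axis, from 0) that were still crossing without each library (grey) and that had over 50% of their group's summed CPM in it (yellow), by library on the horizontal axis. The fewest stayed crossing without Cd_R replicate 1 (392), which with Cd_L replicate 1 also held over 50% most often (182 and 184).

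By the rule for named unigenes, 4 of the 22 are given by ID, those with the lowest p in each direction among those at 1 CPM or more. None has a name or a Gene Ontology (GO) term in the tables of the study. Cluster-14691.63298 had 29.9, 19.99 and 44.2 CPM in Cd_R, against 78.9, 66.5 and 51.6 CPM in CK_R, and 3.02, 3.11 and 2.30 CPM in Cd_L, against 0.514, 1.07 and 0.623 CPM in CK_L. It was the most abundant of the 22, lower under cadmium in every root library and higher in every leaf library, although root stayed above leaf throughout. Its interaction was -3.01 (SE 0.49, log2) by edgeR and -3.04 (SE 0.55) by DESeq2, which called it (adjusted p = 0.000434, Wald test with Benjamini-Hochberg adjustment). Cluster-14691.74298 had 2.73, 2.83 and 4.89 CPM in Cd_R, against 7.98, 21.5 and 9.23 CPM in CK_R, and 0.189, 0.210 and 0.481 CPM in Cd_L, against 0.129, 0 and 0 CPM in CK_L. Its leaf side is 18 counts in Cd_L over 3 in CK_L, a ratio of 5.54 with an exact 95% interval for counting error of 1.62 to 29.4. All 3 of the CK_L counts were in CK_L replicate 1, and without it the interaction was -7.72 in place of -4.31.

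Cluster-14691.81927 went the other way, with 6.85, 6.02 and 3.10 CPM in Cd_R, against 1.09, 0.560 and 2.59 CPM in CK_R, and 0, 0 and 0.107 CPM in Cd_L, against 0.129, 0.450 and 0.113 CPM in CK_L. The leaf groups do not overlap, but they hold 2 counts in Cd_L and 13 in CK_L, a ratio of 0.142 (exact 95% interval 0.0156 to 0.628, counting error only). Both Cd_L counts were in replicate 3, and without it the interaction was 7.41 in place of 4.54. Cluster-14691.5264 had 4.02, 3.05 and 1.68 CPM in Cd_R, against 1.09, 0.921 and 1.66 CPM in CK_R, and 0.142, 0.0421 and 0 CPM in Cd_L, against 0.171, 0.169 and 0.227 CPM in CK_L. Its root groups nearly touch (1.68 CPM in Cd_R replicate 3 and 1.66 CPM in CK_R replicate 3), and its leaf groups hold 4 and 11 counts. Both are root transcripts with a higher level under cadmium, and in leaf both are close to the limit of detection.

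Only 1 of the 22 was annotated. Cluster-14691.561, with GO terms of a DNA-binding transcription factor, had 0.784, 0.609 and 1.49 CPM in Cd_R, against 0.326, 0.120 and 0.166 CPM in CK_R, and 0, 0 and 0.0535 CPM in Cd_L, against 3.26, 0.674 and 0.340 CPM in CK_L. Leaf was above root in every control library and root above leaf in every treated one. The leaf groups held 1 and 94 counts, a ratio of 0.00983 (exact 95% interval 0.000246 to 0.0561, counting error only), and the root change was 2.20 (SE 0.86) on the log2 scale. DESeq2 called its interaction (8.61, SE 1.79, adjusted p = 0.0107, Wald test with Benjamini-Hochberg adjustment), and edgeR did not (8.30, SE 1.5, adjusted p of 1). The study lists it as a leaf unigene chosen on these libraries, which makes its leaf change no independent evidence.

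**Figure D3:**
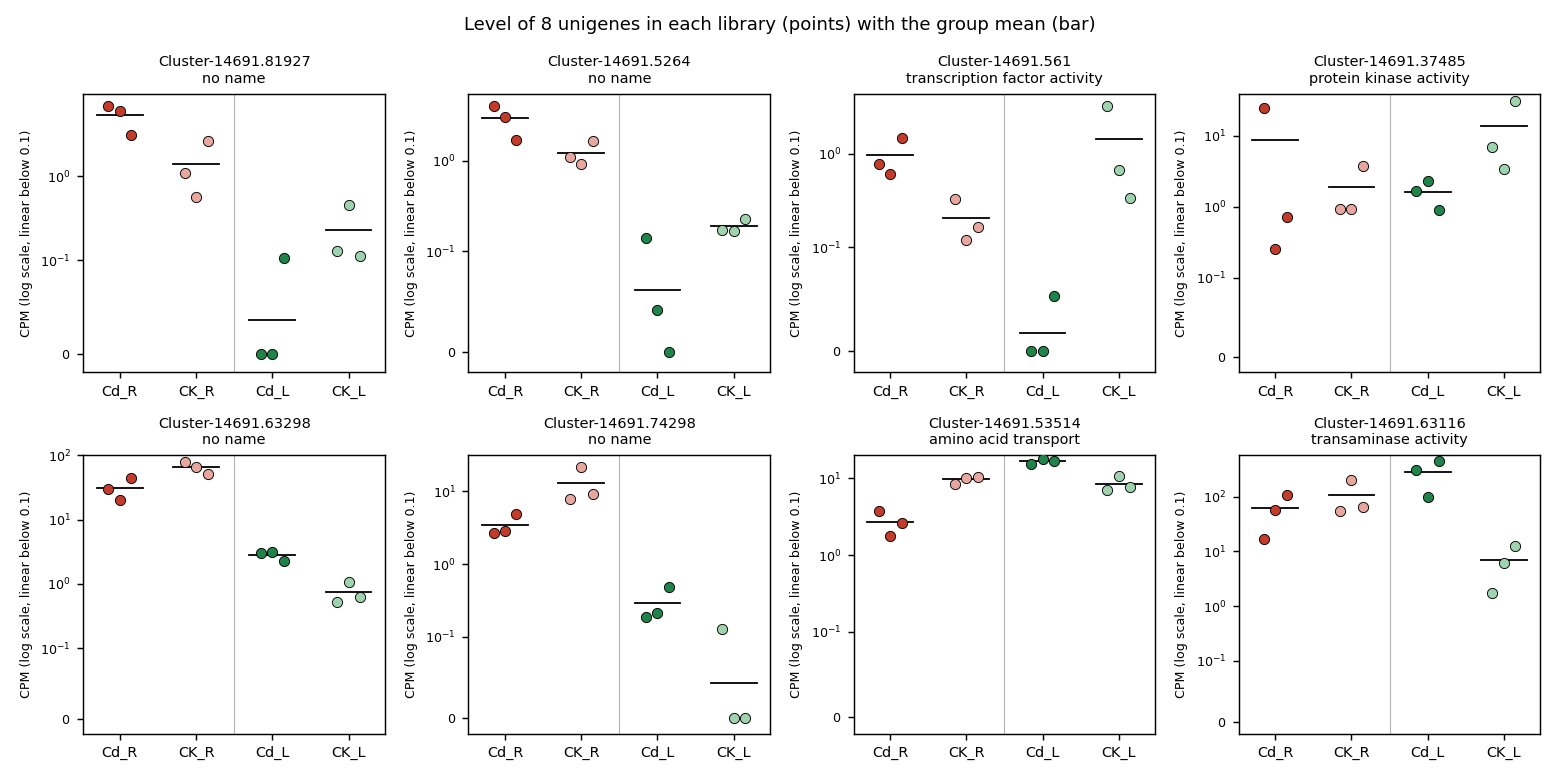
CPM of 8 unigenes in each library (points, log scale above 0.1 CPM and linear below) with the group mean (bar), Cd_R, CK_R, Cd_L and CK_L from left to right. Cluster-14691.63298 is lower in all Cd_R than in all CK_R libraries and higher in all Cd_L than in all CK_L libraries, and in Cluster-14691.37485 a single Cd_R library, replicate 1, is at 25.0 CPM.

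All 10 interaction DEGs of DESeq2 were tested by edgeR: 9 had opposite fitted signs and 2 were crossing. Root libraries did not overlap in 9 of them, leaf libraries in 6, and both with opposite directions in 5. Over all unigenes tested, 42.6% had opposite signs and 0.990% were crossing. Without overlap were 9.56% in root, 8.75% in leaf and 0.227% in both with opposite directions. The same contrast on the same libraries chose these 10, which favours such layouts, so the counts are a description. Annotation was at hand for 4 of the 10, of which Cluster-14691.561 is given above, and the other 6 had no name or term.

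Cluster-14691.53514, annotated with amino acid transmembrane transport, had 3.71, 1.79 and 2.65 CPM in Cd_R, against 8.41, 10.3 and 10.5 CPM in CK_R, and 15.7, 18.1 and 17.0 CPM in Cd_L, against 7.03, 10.8 and 7.82 CPM in CK_L. The control levels of root and leaf overlapped, and under cadmium they did not, with every Cd_L library above every Cd_R library. The root change was -1.84 (SE 0.28) and the leaf change 0.98 (SE 0.27) on the log2 scale, just short of the 2-fold limit in leaf. DESeq2 called its interaction (-2.85, SE 0.40, adjusted p = 9.91e-08, Wald test with Benjamini-Hochberg adjustment), and edgeR did not (-2.82, SE 0.39, adjusted p = 0.936). Its interaction lay between -3.13 and -2.60 when each library was left out in turn.

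Cluster-14691.63116, with transaminase activity and pyridoxal phosphate binding, had the highest positive leaf change of these DEGs, 5.36 (SE 0.99) on the log2 scale. It reached 302, 100 and 439 CPM in Cd_L, against 1.76, 6.07 and 12.8 CPM in CK_L, while its root libraries overlapped, at 16.6, 57.7 and 108 CPM in Cd_R, against 54.6, 200.2 and 63.9 CPM in CK_R. Transaminases move amino groups between amino acids and keto acids, with pyridoxal phosphate as cofactor. DESeq2 gave an interaction of -6.19 (SE 1.16, adjusted p = 0.00114, Wald test with Benjamini-Hochberg adjustment). Cluster-14691.43929, with calcium-dependent phospholipid binding, had the reverse layout, 32.95, 25.1 and 55.8 CPM in Cd_R, against 374, 259 and 286 CPM in CK_R, with leaf libraries that overlapped at 126, 138 and 181 CPM in Cd_L, against 114, 231 and 74.8 CPM in CK_L. Its interaction by DESeq2 was -3.11 (SE 0.61, adjusted p = 0.00269, Wald test with Benjamini-Hochberg adjustment). The edgeR change was -3.01 in root and 0.09 in leaf.

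Names or GO terms were at hand for 355 unigenes of the study's tables, and 284 of these were tested. The study had chosen them on these same libraries, for their cadmium change or for their difference between Cd_R and Cd_L. From the latter it removed unigenes called between CK_R and CK_L, a choice close to the interaction itself. The unigenes are therefore not independent evidence of any direction. Of the 284, 17 (5.99%) were crossing, 11 up in root and 6 down in root, against 0.990% of all unigenes, and 9 of the 17 had an unadjusted p under 0.05. Besides Cluster-14691.561, 5 of the 17 were without overlap in root only, 2 in leaf only and 9 in neither organ. Over all 606 crossing unigenes these counts were 105, 80 and 399. An organ held at most 3 counts in both of its groups in 7 of the 17, and in 172 of the 606.

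The annotated crossing unigenes that were up in root held several regulators. Cluster-14691.77282, an ERF003 of the ethylene-responsive transcription factors, had 0.375, 2.08 and 1.2 CPM in Cd_R, against 0.363, 0.841 and 0.365 CPM in CK_R, and no count in Cd_L, against 3 in CK_L, which allows no fold in leaf. Cluster-14691.78281, a WRKY33, a factor known from defence in *Arabidopsis*, had 61 counts in Cd_R against 24 in CK_R and 1 in Cd_L against 7 in CK_L, with overlap in both organs. Cluster-14691.37485, a protein kinase by its terms, had 25.0, 0.251 and 0.709 CPM in Cd_R, against 0.943, 0.921 and 3.82 CPM in CK_R, and 1.65, 2.31 and 0.909 CPM in Cd_L, against 6.98, 3.37 and 31.2 CPM in CK_L. Its leaf libraries did not overlap, but the root direction came from Cd_R replicate 1, also the library with the most counts of unigenes with a best hit outside the grasses, and without that library the interaction was 1.1 in place of 5.26 on the log2 scale. Cluster-14691.16098, with nucleic acid binding, was higher in every Cd_R library, at 3.17, 4.94 and 3.21 CPM in Cd_R, against 0.907, 0.921 and 1.06 CPM in CK_R, and held 0 counts in Cd_L and 3 in CK_L.

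Hormone and peptide genes mostly had a root side with reads and a leaf side near 0. Cluster-14691.13200, an auxin transporter of the PIN family, which sets the direction of auxin flow between cells, had 1.87, 1.47 and 2.05 CPM in Cd_R, against 0.798, 0.240 and 0.266 CPM in CK_R. Its leaf side was 1 count in Cd_L and 4 in CK_L, all 4 in replicate 2, and without that library the interaction was 0.01 in place of 3.90. Cluster-14691.13007, of the PILS auxin efflux transporters, had 0.136, 5.45 and 18.2 CPM in Cd_R, against 2.25, 2.48 and 0.731 CPM in CK_R, with overlap, and 1 count in Cd_L against 13 in CK_L. Cluster-14691.807, a precursor of RALF peptides, which signal at the cell wall, had 0.613, 2.01 and 0.635 CPM in Cd_R, against 0.254, 0.520 and 0.532 CPM in CK_R, and 0 counts in Cd_L against 4 in CK_L. Taking 3 counts over the group as floor, Cd_L was 1.44-fold lower, a value that leaves counting error in the 4 counts out. All 4 were in CK_L replicate 3, and without it no leaf count was left and the interaction was 1.31 in place of 5.18. Cluster-14691.6139, a cytokinin phosphoribohydrolase, which releases active cytokinin, had 7.02 CPM in Cd_R replicate 1 and 0.358 and 0.821 CPM in the other Cd_R libraries, against 0.145, 0.240 and 1.43 CPM in CK_R. Of the peptide genes down in root, Cluster-14691.8155, a PNP precursor, had 847 counts in CK_R, of which replicate 3 gave nearly all (27.4 CPM, against 0.834 and 0 CPM), and 210 in Cd_R, with a leaf side of 1 and 0 counts.

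The enzymes and transporters among them were as uneven. Cluster-14691.14053, a heme oxidoreductase by its terms, was lower in every Cd_R library, with 9.78, 5.77 and 5.08 CPM, than in CK_R, with 25.2, 16.4 and 25.3 CPM, and held 9 counts in Cd_L and 1 in CK_L (ratio 8.31, exact 95% interval 1.15 to 364, counting error only). Cluster-14691.35486, an intramolecular phosphotransferase of carbohydrate metabolism, was a leaf transcript at 76.6, 111 and 77.2 CPM in Cd_L, against 23.2, 27.5 and 13.9 CPM in CK_L, and its root side was 0 counts in Cd_R and 2 in CK_R, which allows no fold. Cluster-14691.65388, a 13-lipoxygenase at the entry of jasmonic acid synthesis, had the same 0 and 2 counts in root, and in leaf 154, 0 and 9.09 CPM in Cd_L, against 0.857, 25.7 and 0.680 CPM in CK_L. Cluster-14691.15172, annotated as a transporter of the metal chelator nicotianamine (TCR), had 2.76, 2.08 and 2.31 CPM in Cd_R, against 1.2, 3.16 and 12.4 CPM in CK_R, and 5.15, 7.32 and 3.37 CPM in Cd_L, against 0.257, 4.66 and 0.0567 CPM in CK_L. It was the crossing unigene closest to metal handling, it overlapped in both organs, and its interaction was -2.91 (SE 1.56), and -6.19 without CK_L replicate 2. Cluster-14691.81540, an SPX protein of phosphate signalling, had 69 counts in Cd_R, against 19 in CK_R, without overlap, and 0 in Cd_L, against 2 in CK_L. For Cluster-14691.6990, a cinnamoyl-CoA reductase of lignin synthesis, the root libraries were at 2.18, 24.9 and 17.2 CPM in Cd_R, against 5.40, 4.28 and 2.23 CPM in CK_R, with overlap. Its leaf side, also with overlap, was 17 counts in Cd_L and 40 in CK_L. Without CK_L replicate 2 its interaction was 0.37 in place of 3.23. Cluster-14691.76733, an alpha-class expansin, which loosens cell walls, had 1 count in Cd_L and 0 in CK_L, and in root 0.204, 0.932 and 4.14 CPM in Cd_R, against 17.1, 0.640 and 0.332 CPM in CK_R.

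Over the 27 lists of annotated unigenes, none held an interaction DEG by edgeR, and the counts of members are a description. The unadjusted p was under 0.05 in 3.17% of all unigenes. In the study's root list it was so for 18 positive and 36 negative of the 106 tested (median -1.09). In its leaf list these were 13 and 9 of 53 (median 0.75). The lists by GO term were drawn from these lists of cadmium changes, so a large interaction is partly built into them. Positive interactions were 50.9% over all unigenes tested, with a median of 0.01 on the log2 scale, and the scalings tried moved that median to 0.00 and 0.04. Of the 10 unigenes of lipid metabolism and binding, 8 had a negative interaction, 7 with an unadjusted p under 0.05, and the median was -2.29. The median change was -2.25 in root and 0.03 in leaf. Cluster-14691.74477, a lipid hydrolase by its terms, had 4.87, 11.9 and 17.3 CPM in Cd_R, against 56.0, 96.9 and 43.4 CPM in CK_R, and Cluster-14691.50407, of lipid metabolism, had 26.9, 27.5 and 58.8 CPM in Cd_R, against 208, 121 and 149 CPM in CK_R. Neither had leaf groups apart, and the same was true of Cluster-14691.60510, with root and leaf changes of -1.35 and -0.22.

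Of the 12 unigenes of oxidation-reduction, 3 were positive and 9 negative (2 and 5 with an unadjusted p under 0.05, median -1.52). Cluster-14691.60118, an oxidoreductase, had a root change of -1.74 (SE 0.32) and a leaf change of -0.19 (SE 0.31). Cluster-14691.34526, with copper ion transport, had -2.56 (SE 0.59) in root and -0.14 (SE 0.55) in leaf. Cluster-14691.54609, a heme oxidoreductase, was higher in every Cd_R library, with 29.0, 11.03 and 3.77 CPM in Cd_R, against 0.725, 1.40 and 1.69 CPM in CK_R. The 15 unigenes of transport were split, 7 positive and 8 negative (2 and 3 with an unadjusted p under 0.05, median -0.68). Among them Cluster-14691.15297, a proton pump driven by pyrophosphate, as found in the vacuole membrane, had 45.5, 80.6 and 62.3 CPM in Cd_R, against 16.6, 8.97 and 12.6 CPM in CK_R, and overlapped in leaf. Cluster-14691.49342, with potassium ion transport, was higher under cadmium in both organs without overlap, by 1.69 (SE 0.28) in root and 0.62 (SE 0.28) in leaf.

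The 9 unigenes of proteolysis had 1 positive and 8 negative interactions (1 and 2 with an unadjusted p under 0.05, median -1.46), and none had opposite signs. Of its cysteine-type endopeptidases, Cluster-14691.37347 was higher in root under cadmium, with 17.7, 49.1 and 17.3 CPM in Cd_R, against 1.12, 5.64 and 2.06 CPM in CK_R, and Cluster-14691.41563 lower, with 19.0, 11.97 and 64.3 CPM in Cd_R, against 139, 289 and 223 CPM in CK_R. The serine-type Cluster-14691.69201 was higher in every Cd_L library, with 70.8, 99.5 and 13.7 CPM in Cd_L, against 2.01, 4.78 and 10.5 CPM in CK_L. The 5 ester hydrolases had 2 positive and 3 negative interactions (median -1.09), and Cluster-14691.27031 among them had a root change of -2.65 (SE 0.63) and a leaf change of -0.44 (SE 0.78). The 4 unigenes of carbohydrate metabolism had 3 positive and 1 negative (median 1.16). The beta-amylase Cluster-14691.42839, an enzyme of starch breakdown, had 15.0, 13.6 and 11.02 CPM in Cd_L, against 32.8, 38.2 and 56.3 CPM in CK_L, with overlap in root.

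Of the 9 unigenes with transcription factor activity, 7 were positive and 2 negative (4 and 2 with an unadjusted p under 0.05, median 1.29). Cluster-14691.47376 had a leaf change of -3.05 (SE 0.93) and a root change of 0.20 (SE 0.84). Cluster-14691.61107 had 10.5, 10.3 and 10.4 CPM in Cd_L, against 5.06, 4.05 and 4.19 CPM in CK_L and had a root change of 0.14 (SE 0.19). Cluster-14691.27999, a CRF5-related ethylene-responsive factor, had 0.750, 0.322 and 0.448 CPM in Cd_R, against 3.55, 1.92 and 2.49 CPM in CK_R, and overlapped in leaf. In the study's list of transcription factors between Cd_R and Cd_L, 11 of the 19 tested were positive and 8 negative (2 and 1, median 0.67). Of the 5 protein kinases, 4 were positive and 1 negative (3 and 1, median 1.82), with root changes of 1.71 (SE 0.30) in Cluster-14691.63647, 2.26 (SE 0.59) in Cluster-14691.42544 and -2.47 (SE 0.44) in Cluster-14691.47350, each without overlap in root and with overlap in leaf.

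**Figure D4:**
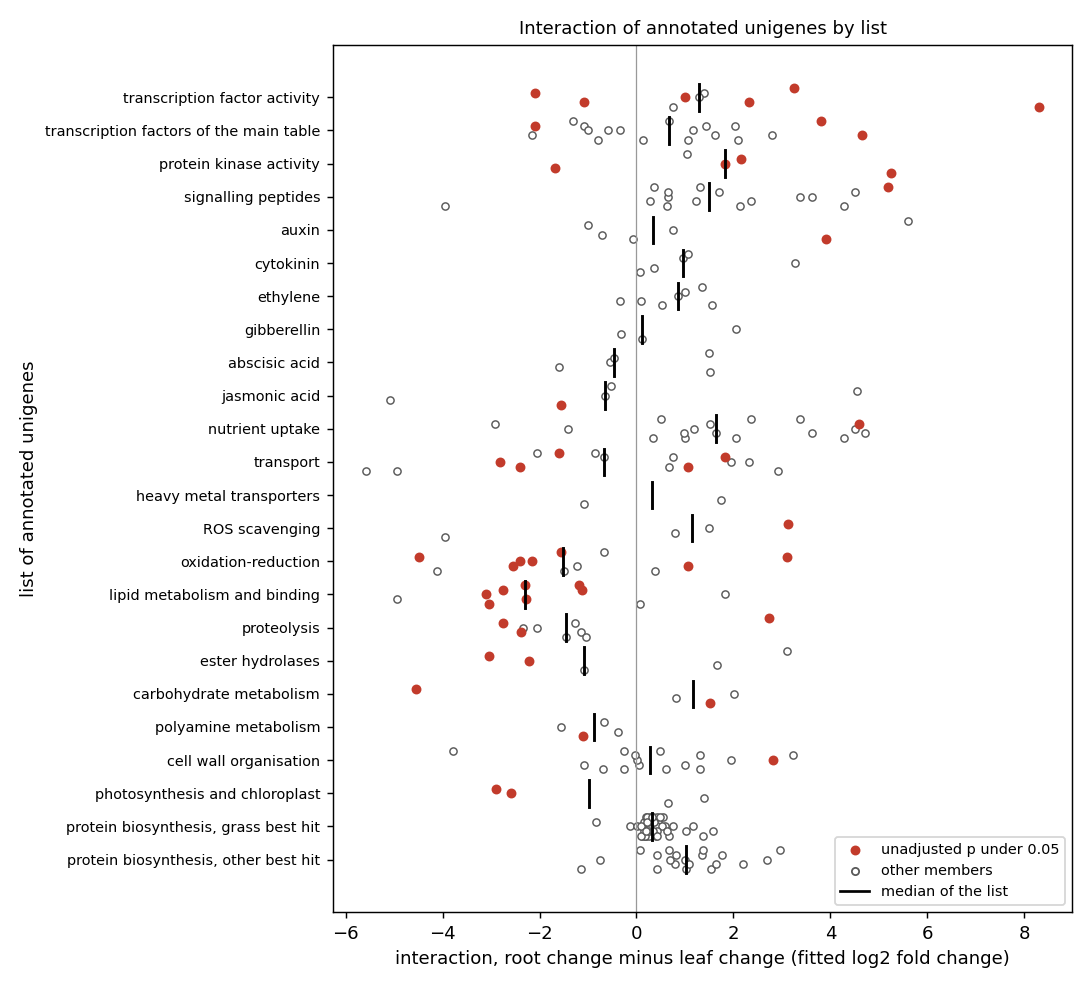
Interaction (root change minus leaf change, fitted log2 fold change, horizontal axis) of each tested member of 24 lists of annotated unigenes (vertical axis), with the median of each list as a bar and members with an unadjusted p under 0.05 filled. Lipid metabolism and binding lies mostly left of 0 (median -2.29) and protein kinase activity mostly right of it (median 1.82), and the filled points to the far right and left include Cluster-14691.561 (8.30) and Cluster-14691.35486 (-4.54).

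The hormone lists held few members with an unadjusted p under 0.05. The counts of positive and negative interactions were 3 and 3 for auxin (median 0.34), 5 and 0 for cytokinin (0.96), 6 and 1 for ethylene (0.85), 2 and 1 for gibberellin (0.12), 2 and 3 for abscisic acid (-0.47) and 1 and 4 for jasmonic acid (-0.65). The allene oxide cyclase Cluster-14691.51153, an enzyme of jasmonic acid synthesis, had 115, 87.7 and 156 CPM in Cd_R, against 497, 379 and 201 CPM in CK_R, and overlapped in leaf. Lowest in p within the other lists were the ACC oxidase Cluster-14691.30304, which makes ethylene (interaction 0.85, SE 0.39), the gibberellin 20-oxidase Cluster-14691.11833 (2.06, SE 0.94), the A-type response regulator of cytokinin Cluster-14691.55777 (0.96, SE 0.47), and the RHA2 of abscisic acid signalling Cluster-14691.16178 (1.49, SE 0.78). Each had an unadjusted p above 0.05.

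Signalling peptides had 15 positive and 1 negative interaction among the 16 tested (1 and 0 with an unadjusted p under 0.05, median 1.5), but 10 of them had no count in any leaf library, so that their interaction is the root change alone. This list and that of nutrient uptake hold unigenes called between Cd_R and Cd_L but not between CK_R and CK_L. Where root was higher, that choice favours a positive sign. In nutrient uptake, 15 of 17 were positive (median 1.65, or 1.52 with fold changes against groups without counts taken from the floor of 3 counts), with 5 without leaf counts. There Cluster-14691.81539, an SPX protein like Cluster-14691.81540, had 0 counts in Cd_L against 5 in CK_L and overlapped in root. With Cd_L set to the same floor it was 1.80-fold lower, a value that leaves counting error out. Cell wall organisation had 10 positive and 6 negative (median 0.27), with the pectin methylesterase Cluster-14691.66836 at 2.81 (SE 1.1). All 4 unigenes that the study's pathway table places in polyamine metabolism were negative (median -0.88), while Cluster-14691.6139, a cytokinin gene there but listed elsewhere in the study under polyamines as a putative lysine decarboxylase, was positive (3.27, SE 2.11). Among the 4 was the polyamine oxidase Cluster-14691.48693 with 75.8, 54.0 and 77.4 CPM in Cd_R, against 157, 120 and 121 CPM in CK_R, and an interaction of -1.1 (SE 0.34). The 4 unigenes with photosynthesis or chloroplast terms had 2 positive and 2 negative interactions (0 and 2 with an unadjusted p under 0.05, median -0.97), and both negative ones were higher in leaf under cadmium: Cluster-14691.42884 had 26.8, 84.5 and 38.8 CPM in Cd_L, against 13.1, 8.15 and 11.3 CPM in CK_L, and Cluster-14691.43873 had 24.3, 106 and 41.5 CPM in Cd_L, against 14.8, 9.16 and 14.9 CPM in CK_L. In root both were at or under 0.907 CPM. Of the positive ones, Cluster-14691.52923, chosen after its values were seen, was lower under cadmium without overlap in both organs, with changes of -0.80 in root and -1.44 in leaf. The other positive one, Cluster-14691.18292, went the other way, with fitted changes of 2.32 in root and 0.93 in leaf.

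Of 47 protein biosynthesis unigenes with a grass best hit, 45 had a positive interaction (44 with the size factors of DESeq2), 0 with an unadjusted p under 0.05 and a median of 0.32, and the pre-40S export factor Cluster-14691.44748 was at 0.58 (SE 0.30). The study chose protein biosynthesis unigenes, mostly higher in Cd_R than in Cd_L, without those called between CK_R and CK_L, which favours that sign. Of the 20 tested with another best hit, 18 were positive (median 1.02), 11 had no leaf count, and the ribosomal RPS23 Cluster-14691.5526 had 21.9 CPM in Cd_R replicate 1, against 1.68 and 0.784 CPM in the other Cd_R libraries and 1.34, 1.28 and 1.06 CPM in CK_R. Without that library its interaction was 0.23 in place of 2.95.

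For the metals themselves, HMA3 (Cluster-14691.35424), in rice the vacuolar pump that retains cadmium in roots, had 3 counts in Cd_R, against 10 in CK_R, and 31 in Cd_L, against 42 in CK_L, with an interaction of -1.09 (SE 1.36). Nramp1 (Cluster-27204.0), a metal transporter of the plasma membrane in rice, had 0.613, 0.537 and 0.635 CPM in Cd_R, against 0.544, 0.640 and 0.299 CPM in CK_R, and 3 counts in Cd_L, against 8 in CK_L (interaction 1.74, SE 1.08). Neither had an interaction with an unadjusted p under 0.05 (0.440 for HMA3, Cluster-14691.35424, and 0.136 for Nramp1, Cluster-27204.0). Of the 6 ROS (reactive oxygen species) scavenging unigenes, 4 were tested and 3 of these had no leaf count. The other, ascorbate peroxidase 3 (Cluster-14691.24413), had 80.2, 21.1 and 8.66 CPM in Cd_R, against 8.38, 3.52 and 2.46 CPM in CK_R, and overlapped in leaf, with an interaction of 3.13 (SE 1.06), and 1.49 without Cd_R replicate 1 and CK_R replicate 3.

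None of the 8 unigenes of the study's qRT-PCR table had an interaction with an unadjusted p under 0.05. The cyclin dependent kinase Cluster-14691.35187, at 22.0 to 24.5 CPM in Cd_R, 23.9 to 24.6 CPM in CK_R, 27.9 to 33.6 CPM in Cd_L and 24.5 to 32.3 CPM in CK_L, had an interaction of -0.09 (SE 0.24). The xylanase Cluster-14691.49288, with 506, 440 and 497 CPM in Cd_R, against 1319, 888 and 701 CPM in CK_R, and 4.48, 3.62 and 3.85 CPM in Cd_L, against 24.03, 2.47 and 71.0 CPM in CK_L, had the lowest unadjusted p of them (0.0895). Its interaction was 2.01 (SE 1.08), with changes of -1.01 in root and -3.03 in leaf, and 0.72 without CK_L replicate 3. Cluster-14691.18708, labelled only Glycine, was higher under cadmium in both organs without overlap, by 2.13 (SE 0.58) in root and 2.55 (SE 0.76) in leaf. The interaction was 2.08 (SE 1.96) for the ABC transporter Cluster-14691.76303, 0.61 (SE 1.05) for Cluster-14691.31660 (labelled only BAE44) and 0.61 (SE 1.26) for the sucrose 1-fructosyltransferase Cluster-14691.50971. It was -0.10 (SE 0.70) for Cluster-14691.10370 (labelled only GQ55) and 0.08 (SE 0.73) for the glucosyltransferase Cluster-14691.61095.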

How the data were processed

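Poly(A) RNA of leaves and roots was sequenced on an Illumina instrument in 12 libraries, and the submitters' processing notes name CASAVA 1.8, RSEM and DESeq2. The authors assembled the reads de novo with Trinity, clustered the transcripts with Corset and deposited a table of RSEM expected counts per unigene, without normalization, of which 88.6% were whole numbers. No genome or unigene sequence was used here, near-identical copies can share counts, and strand in the counting is not given in the sources used here. Deposited expected counts were rounded and fitted with edgeR 4.0.16 in R 4.3.3 (TMM, filterByExpr, glmQLFit, glmQLFTest) with 4 group means. DEGs had a Benjamini-Hochberg adjusted p not above 0.05 and a log2 fold change of 1 or more in size. DESeq2 1.42.0, limma 3.58.1 (voom), other scalings, filters and fold limits, a replicate block and libraries left out were alternatives. Of these, edgeR's newer dispersion method, DESeq2 folds on filtered unigenes and DESeq2 without both root libraries that stood apart, were chosen after seeing the data. CPM are TMM-scaled, and counting intervals are exact and cover counting error only. The SE of edgeR were derived from the fold change and the F of its test, and those of DESeq2 are its own.

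Names and GO terms came from the study's tables, whose fold changes were not used. The members and lists were chosen with earlier results of these data known. Unigenes were named if annotated and crossing, if lowest in p within a list (up to 4 with an unadjusted p under 0.05, otherwise 1), if an annotated DESeq2 DEG, if among the 4 unigenes without overlap described by ID, or if in the qRT-PCR table or a heavy metal transporter. This gave 69, of which 3 without a name or term are given by count only. No library was a duplicate of another. The fit was run on simulated data with changes planted in better expressed unigenes only. It therefore does not show how changes at low counts, as in most crossing unigenes, are recovered.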

Additional observations from a re-analysis of the deposited data

Results flagged for a closer look

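In 7 of the 69 named unigenes every Cd library lay on one side of every CK library in root and on the opposite side in leaf, and 1 of the 7, without a name or term, is given by count only. For the others the interaction, root change minus leaf change on the log2 scale, was -2.82 for Cluster-14691.53514 (amino acid transport), -3.01 for Cluster-14691.63298, -4.31 for Cluster-14691.74298, 8.30 for Cluster-14691.561 (transcription factor activity), 4.54 for Cluster-14691.81927 and 2.76 for Cluster-14691.5264. Leaving out 1 library moved it to -7.72 for Cluster-14691.74298 (without CK_L replicate 1) and to 7.41 for Cluster-14691.81927 (without Cd_L replicate 3). The difference between organs was tested by edgeR's quasi-likelihood test and did not pass for these, with Benjamini-Hochberg adjusted p of 0.936 for Cluster-14691.53514 and of 1 for the others. DESeq2 called 4 of the 7, with adjusted p of 9.91e-08 for Cluster-14691.53514, 0.000434 for Cluster-14691.63298 and 0.0107 for Cluster-14691.561 among those given by ID. No overlap with opposite directions was found in 139 (0.227%) of all unigenes tested. With 3 libraries against 3 such a layout can arise without any change.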

How the results depend on the processing

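The interaction had 0 DEGs by edgeR under every scaling, filter and fit tried and with each library left out in turn, with a lowest adjusted p of 0.122 without Cd_R replicate 1. DESeq2 called 10 with default settings, 8 without independent filtering and 32 without both root libraries that stood apart. The replicate numbers were not used as pairs in the main fit. Of 12 same-numbered pairs, 3 had deviations with a correlation over 0.1, and 2 libraries correlated best with their own number. Pairs across treatments cannot share a pot. Between root and leaf the correlations were 0.08, 0.20 and 0.12 in CK and 0.04, -0.13 and 0.06 in Cd. With 3 replicates these cannot decide whether a number marks the same pot. With the replicate number as a block, edgeR called 0 (1548 unigenes with an unadjusted p under 0.05, against 1941 without it), and with a block by treatment and number 0 (1910). The 606 crossing unigenes became 4857 without a filter, 295 at a mean of at least 1 CPM, 4689 with DESeq2 on all unigenes (588 on those that passed the filter), 2305 at 1.5-fold, 65 at 4-fold, 26077 at any fold and 186 with a prior count of 2, which draws low counts toward no change. Leaving out 1 library gave 802 to 1168. With limma voom the number was 600, of which 235 were among the 606. The 22 without overlap became 97 without a filter, 7 at a mean of at least 1 CPM, 67 at 1.5-fold, 6 at 4-fold, 139 at any fold, 107 without both root libraries and 50 to 105 with 1 library left out. The cause of the other differences was not tested.

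Of the 69 named unigenes, 61 kept the sign of their interaction under all settings that gave a value. With voom it was -1.04 for Cluster-14691.76303, 0.28 for Cluster-14691.35424, 0.25 for Cluster-14691.10370 and -0.55 for Cluster-14691.61095. For Cluster-14691.10370 it was 0.01 with the replicate block by treatment and number, and for Cluster-14691.18708 it was 0.09 with a prior count of 2. Without both root libraries it was -1.06 for Cluster-14691.18708 by edgeR, 0.43 for Cluster-14691.35424 and -0.18 for Cluster-14691.61095, by edgeR and by DESeq2, and 1.05 for Cluster-14691.8155 by DESeq2. With 1 library left out it ranged between -0.19 and 1.09 for Cluster-14691.31660, -0.48 and 0.45 for Cluster-14691.10370, -0.45 and 0.47 for Cluster-14691.61095, -0.84 and 0.39 for Cluster-14691.18708, -4.56 and 0.53 for Cluster-14691.8155, -0.16 and 0.03 for Cluster-14691.35187 -1.37 and 4.11 for Cluster-14691.76303 and -1.94 and -0.12 for Cluster-14691.35424.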
